A study of Mus musculus with 6 samples.

Results

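The 34 genes described here are expressed by the macrophages of adipose tissue and were chosen by name from what is known of these cells, by a rule that uses no measured value, though with earlier results of these data known. They fall into 4 classes, namely 16 core macrophage genes, 10 genes of resident, perivascular macrophages, 4 genes of monocyte-derived cells and 4 genes of lipid-associated macrophages. All 34 were counted in every mouse and passed the filter on low counts, among 17667 genes tested of 47069 listed. RNA was sequenced from the inguinal subcutaneous white adipose tissue (SC-WAT) of 3 *Egr1*+/+ and 3 *Egr1*-/- mice, 1 library per mouse, all females of the C57BL/6 strain and 2 weeks old. *Egr1* encodes a zinc finger transcription factor induced early by growth factors and stress. The *Egr1*-/- allele carries LacZ ahead of the coding sequence and a frameshift before the DNA-binding domain, so that *Egr1* was inactive in every cell type of the animal from conception, macrophages included. The mice came from heterozygous matings and 4 litters, 1 *Egr1*+/+ mouse and 1 *Egr1*-/- mouse shared a litter, and neither genotype received a treatment.

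Macrophages of adipose tissue engulf dead adipocytes, take up lipid and iron and release signals to the stroma and vessels. Part of them is laid down before birth and renews itself in place, and these resident cells lie along vessels and carry scavenger and lectin receptors. Others derive from circulating monocytes, and in obesity some of these take on a lipid-handling state around dying adipocytes. In bulk tissue, fewer macrophages and less RNA of a gene per macrophage cannot be told apart.

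Between 29661984 and 42357981 reads per mouse were counted on genes, 50.0 to 57.4% of them on mitochondrial genes in *Egr1*+/+ mice and 54.9 to 66.3% in *Egr1*-/- mice. A member held between 15 and 6483 counts in a mouse, and 31 of 34 had at least 50 counts in every mouse. *Egr1* itself was counted 353, 241 and 711 times in the *Egr1*+/+ mice against 103, 84 and 57 times in the *Egr1*-/- mice, a log2 fold change of -2.19 (SE 0.299, adjusted p = 0.0878 with edgeR's quasi-likelihood test). The counts of the genotypes did not overlap. The authors' sample numbers begin with 25 for the *Egr1*+/+ mice and *Egr1*-/- replicate 1, and with 26 for *Egr1*-/- replicates 2 and 3. What the first number stands for was not given. Where values per mouse are printed below, they follow the replicate order, so that these *Egr1*-/- mice can be told apart.

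All classes of macrophage gene were measured in the tissue, at levels that differed widely on a scale per transcript length (RPKM). RPKM are read counts scaled to exon length and to library size after TMM normalization. *Lyz2*, encoding the lysozyme of myeloid cells, had the highest level, with a mean of 86.6 RPKM in *Egr1*+/+ mice and 69.1 in *Egr1*-/- mice. *Retnla* (44.4 RPKM in *Egr1*+/+ mice), *Ctss* (34.7), *Mrc1* (22.5), *Pf4* (21.9) and *F13a1* (20.2) followed, and 4 of these 5 belong to the resident class. Resident genes had a median of 11.2 RPKM in *Egr1*+/+ mice, core genes one of 5.79, lipid-associated genes one of 1.69 and monocyte-derived genes one of 1.19. *Trem2*, the lipid receptor that defines lipid-associated macrophages, was the lowest of the 34, with 0.162 RPKM in *Egr1*+/+ mice and 0.111 in *Egr1*-/- mice.

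**Figure D1:**
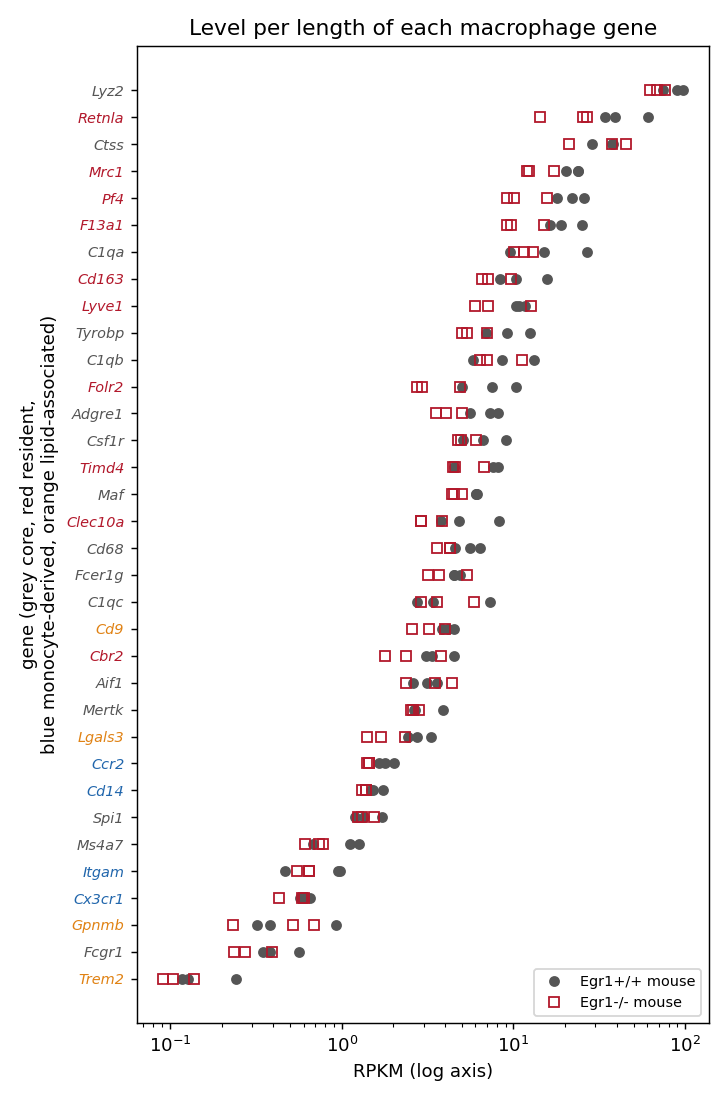
Level of each macrophage gene in each mouse, in RPKM on a log axis, with filled circles for *Egr1*+/+ mice and open squares for *Egr1*-/- mice and genes ordered by their *Egr1*+/+ mean. The level spans from 0.162 RPKM for *Trem2* to 86.6 RPKM for *Lyz2*, and red resident genes sit mostly in the upper part.

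Most members were lower on average in *Egr1*-/- mice, and none of them passed the test after adjustment. Of 34 genes, 33 had a negative log2 fold change (*Egr1*-/- minus *Egr1*+/+) and 1, *Aif1*, a positive one. The median was -0.40, a fold of 0.760, while that of all tested genes was 0.00. At an unadjusted p under 0.05, 14 members were lower and 0 higher, against 5.6% of all tested genes lower and 5.06% higher. Without *Egr1*-/- replicate 2, 8 members were lower at that threshold, and the share of all genes in that fit was not computed. The 14 had log2 fold changes between -1.11 and -0.32 and adjusted p-values of 0.202 to 0.450 with edgeR. The values of the genotypes did not overlap for 11 members, all lower in *Egr1*-/- mice, and this held for 8.1% of all tested genes in that direction and for 8.15% in the other. After adjustment edgeR called 0 members, and 0.017% of all tested genes, while DESeq2 called 6 members lower (*Adgre1*, *Mrc1*, *Folr2*, *Retnla*, *F13a1* and *Pf4*) beside 1.71% of the genes it gave an adjusted p. The mice are the replicates here, and the tests set the genotype difference against the spread between mice of the same genotype. Litter and first sample number were not terms in the main fit.

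**Figure D2:**
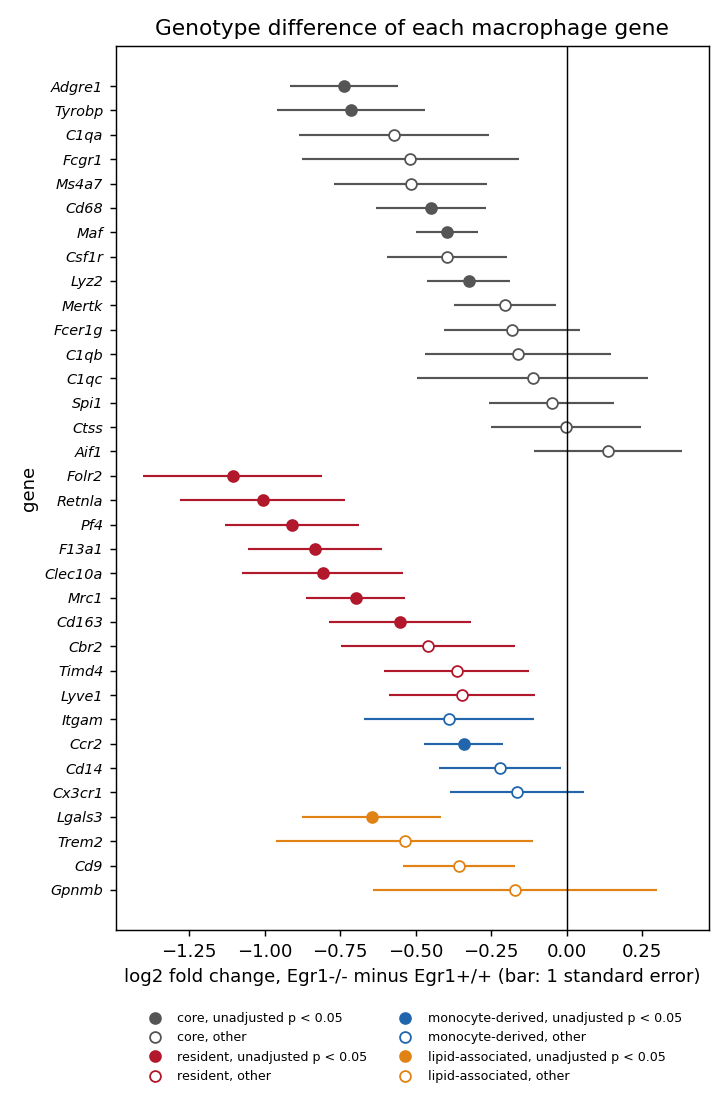
Log2 fold change of each macrophage gene, *Egr1*-/- minus *Egr1*+/+, with bars of 1 standard error and filled points for genes at an unadjusted p under 0.05. Nearly every point lies left of 0, resident genes lie between -1.11 and -0.35, and *Ctss*, *Spi1* and *C1qc* lie close to 0.

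Resident macrophage genes had the largest median difference of the 4 classes. All 10 were lower on average in *Egr1*-/- mice, 7 at an unadjusted p under 0.05 (5.6% of all tested genes), and the median log2 fold change was -0.75, a fold of 0.593. The first sample number as a term, a fit chosen after the values were seen, left *Egr1*-/- replicate 1 alone against the *Egr1*+/+ mice. In that fit the median was -0.45, *Lyve1* was at 0.21 and *Cbr2* at 0.062. CPM are read counts scaled to library size after TMM normalization, without exon length. Those of the 10 genes summed to 392, 544 and 454 in *Egr1*+/+ mice and to 363, 245 and 243 in *Egr1*-/- mice. All 3 *Egr1*-/- mice were below the *Egr1*+/+ mice, replicate 1 narrowly and replicates 2 and 3 by a wide margin. Adjusted p-values of the class ran from 0.202 to 0.676 in edgeR's test.

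Endocytic receptors made up most of the class. *Mrc1*, the mannose receptor CD206, had 129, 151 and 150 CPM in *Egr1*+/+ mice against 110, 76.3 and 78.2 in *Egr1*-/- mice (log2 fold change -0.70, SE 0.163, adjusted p = 0.202 with edgeR). *Folr2*, the folate receptor of perivascular macrophages, had 7.74, 15.9 and 11.5 CPM against 7.53, 4.26 and 4.53, the lowest log2 fold change of the 34 (-1.11, SE 0.297, adjusted p = 0.242 with edgeR). For both genes the genotypes did not overlap, with *Egr1*-/- replicate 1 nearest to the *Egr1*+/+ mice. *Clec10a*, a lectin for galactose and N-acetylgalactosamine, had 11, 23.8 and 14.1 CPM against 11.1, 8.36 and 8.37 (log2 fold change -0.81, SE 0.267). *Cd163*, the haemoglobin-haptoglobin receptor, had 45.6, 85.3 and 56.6 CPM against 53.1, 38.9 and 35.9 (-0.55, SE 0.235). In both, *Egr1*-/- replicate 1 lay within the *Egr1*+/+ values and the other *Egr1*-/- mice lay below all of them. Without *Egr1*+/+ replicate 2 their log2 fold changes were -0.43 and -0.26.

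Genes for secreted products in the resident class were lower on average as well. The class was set by name, and which cells gave their RNA was not measured. *Retnla*, the resistin-like protein of alternative activation, had 20.3, 36.3 and 23.2 CPM in *Egr1*+/+ mice against 15.97, 15.2 and 8.503 in *Egr1*-/- mice (log2 fold change -1.01, SE 0.274, adjusted p = 0.245 with edgeR). *Pf4*, a chemokine of platelets that these macrophages also make, had 12.9, 15.9 and 18.5 CPM against 11.3, 7.23 and 6.63 (-0.91, SE 0.222, adjusted p = 0.224 with edgeR). *F13a1*, the A subunit of the clot-stabilising transglutaminase factor XIII, had 111, 169 and 128 CPM against 102, 64.9 and 62.01 (-0.83, SE 0.223, adjusted p = 0.239 with edgeR). None of the 3 genes overlapped between the genotypes, and in each *Egr1*-/- replicate 1 was nearest to the *Egr1*+/+ mice. The 5 platelet markers looked at beside *Pf4*, of which 2 were abundant enough to test, summed to 3.06 to 4.10 CPM in *Egr1*+/+ mice and 2.94 to 4.58 in *Egr1*-/- mice.

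The other resident genes overlapped between the genotypes. *Lyve1*, a hyaluronan receptor of perivascular macrophages and of lymphatic endothelium, had 34.03, 31.4 and 30.04 CPM in *Egr1*+/+ mice against 36.8, 17.5 and 20.8 in *Egr1*-/- mice. *Egr1*-/- replicate 1 was the highest of the 6 and the other *Egr1*-/- mice the lowest, and the log2 fold change was -0.35 (95% interval -0.89 to 0.20). The 6 markers of lymphatic endothelium summed to 35.7 to 47.0 CPM in *Egr1*+/+ mice and 35.2 to 38.5 in *Egr1*-/- mice. On average 4 of these were lower and 2 higher, 3 of them lower at an unadjusted p under 0.05 (5.6% of all tested genes). Which of these cell types gave the *Lyve1* RNA was not tested. *Timd4*, a phosphatidylserine receptor that marks self-renewing macrophages, had 16.4, 9.85 and 17.6 CPM against 9.64, 9.91 and 14.6 (-0.36, SE 0.240). *Cbr2*, a carbonyl reductase, had a log2 fold change of -0.46 (SE 0.288).

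**Figure D3:**
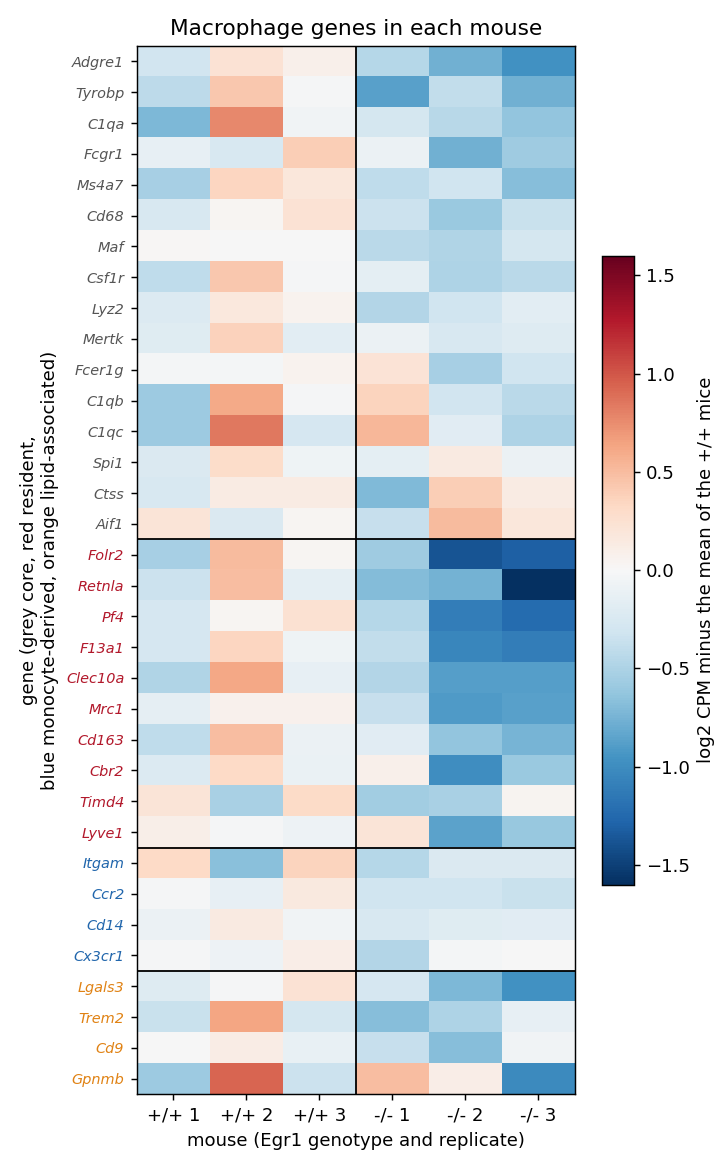
Log2 CPM of each macrophage gene in each mouse after subtraction of the mean of the *Egr1*+/+ mice, with blue for lower and red for higher values and genes grouped by class. The darkest blue cells are resident genes in *Egr1*-/- replicates 2 and 3, and *Egr1*+/+ replicate 2 is the reddest column, the highest mouse for 21 of 34 genes.

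Core macrophage genes were lower on average by less, with 15 of 16 negative, 5 at an unadjusted p under 0.05 (5.6% of all tested genes) and a median log2 fold change of -0.36, a fold of 0.779. Without *Egr1*+/+ replicate 2, the highest for 10 of these 16 genes, the median was -0.18. Summed CPM of the class were 294, 414 and 357 in *Egr1*+/+ mice against 273, 293 and 292 in *Egr1*-/- mice. *Egr1*+/+ replicate 1 lay close to the *Egr1*-/- mice, and the sums barely separated.

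Surface receptors and their adaptors differed among themselves. *Adgre1*, encoding the F4/80 antigen, had 18.05, 26.2 and 23.7 CPM in *Egr1*+/+ mice against 16.3, 13.04 and 11.4 in *Egr1*-/- mice, the largest difference of the core class (log2 fold change -0.74, SE 0.178, adjusted p = 0.220 with edgeR). *Tyrobp*, the DAP12 adaptor through which Trem2 and other receptors signal, had 4.63, 8.36 and 6.12 CPM against 3.36, 4.68 and 3.59 (-0.71, SE 0.245). *Csf1r*, the receptor for the growth factor on which macrophages depend, had 29.4, 52.3 and 38.3 CPM against 34.8, 27.6 and 28.7. Its log2 fold change was -0.40 with a 95% interval of -0.84 to 0.05, and the genotypes overlapped. *Fcgr1* (-0.52), *Ms4a7* (-0.52), *Mertk* (-0.20) and *Fcer1g* (-0.18) had an unadjusted p over 0.05.

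Lysosomal genes were split. *Lyz2* had 97.2, 127 and 118 CPM in *Egr1*+/+ mice against 81.8, 90.5 and 100 in *Egr1*-/- mice (log2 fold change -0.32, SE 0.139), with 1 *Egr1*-/- mouse above the lowest *Egr1*+/+ mouse. *Cd68*, a glycoprotein of the lysosomal membrane, had 5.70, 6.99 and 8.07 CPM against 5.37, 4.52 and 5.33 (-0.45, SE 0.181), without overlap. *Ctss*, the cathepsin that trims the MHC class II invariant chain, had 39.1, 51.1 and 51.3 CPM against 28.5, 61.6 and 51.1, and the mean was 47.1 in both genotypes (95% interval of the log2 fold change -0.57 to 0.56). *Aif1*, the actin-binding protein IBA1, was the only member higher on average, with a log2 fold change of 0.14 (95% interval -0.41 to 0.69).

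The C1q genes, which encode the chains of the first complement component and lie together within 18.7 kb of chromosome 4 in the order *C1qb*, *C1qc* and *C1qa*, varied more among the *Egr1*+/+ mice than between the genotype means. *C1qa* had 9.93, 28.03 and 15.8 CPM in *Egr1*+/+ mice against 13.5, 12.04 and 10.5 in *Egr1*-/- mice. *C1qb* had 6.32, 14.4 and 9.33 CPM against 12.2, 7.65 and 6.98. *C1qc* had 5.27, 14.2 and 6.56 CPM against 11.4, 6.97 and 5.56. In each, *Egr1*+/+ replicate 2 was the highest and *Egr1*+/+ replicate 1 the lowest of the 6 mice, with *Egr1*-/- values between them. Log2 fold changes were -0.57, -0.16 and -0.11, with standard errors of 0.315, 0.308 and 0.383.

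The transcription factors also parted. *Maf*, encoding c-Maf, a regulator of resident macrophages that other cells express too, had 50.6, 49.9 and 49.7 CPM in *Egr1*+/+ mice against 37.2, 36.0 and 41.1 in *Egr1*-/- mice (log2 fold change -0.40, SE 0.104, adjusted p = 0.233 with edgeR). Its standard error was the smallest of the 34 and *Egr1*-/- replicate 1 lay between the other *Egr1*-/- mice. *Spi1*, encoding PU.1, the factor needed for myeloid development, had 3.20, 4.63 and 3.62 CPM against 3.36, 4.16 and 3.52 (-0.05, 95% interval -0.52 to 0.42).

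Promoters were searched because PU.1 binds near many macrophage genes and EGR1 has a known GC-rich site. Windows from 250 bases before to 50 after the start were available from RefSeq on GRCm38.p6 for 25 of 34 members and for 27025 genes in all. The 8-base PU.1 core GAGGAAGT, sought on both strands, was present in 5 of these 25 members, or 20%, and in 3.69% of all genes with a window. Those 5 were *C1qc*, *Ctss*, *F13a1*, *Pf4* and *Retnla*, so that genes with the lowest fold changes and genes near 0 both held it. The EGR forms GCGTGGGCG and GCGGGGGCG, on both strands, were in 0 of 25 members and in 0.707% and 3.31% of all genes, which says only that these letters are not in these windows. The lines that follow give the stretches upstream of a core gene with a log2 fold change of -0.11 and of 2 resident genes with -1.01 and -0.91, 5′ to 3′ on the strand of the gene, with the PU.1 core in capitals, here on the reverse strand.
*C1qc* (chr4:136893090-136893121, minus strand, core from base -195): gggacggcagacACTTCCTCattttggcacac
*Retnla* (chr16:48842399-48842430, plus strand, core from base -198): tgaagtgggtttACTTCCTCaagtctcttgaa
*Pf4* (chr5:90772413-90772434, plus strand, core from base -10): cttctgcagagcACTTCCTCat

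Monocyte-derived genes were low in both genotypes, and all 4 were lower on average in *Egr1*-/- mice, with a median log2 fold change of -0.28, a fold of 0.823. *Ccr2*, the chemokine receptor by which monocytes leave the bone marrow, had 12.02, 11.1 and 13.7 CPM in *Egr1*+/+ mice against 9.79, 9.75 and 9.54 in *Egr1*-/- mice (-0.34, SE 0.130, adjusted p = 0.391 with edgeR). *Cd14*, the lipopolysaccharide co-receptor, had 2.56, 3.03 and 2.64 CPM against 2.28, 2.39 and 2.39 (-0.22, SE 0.203). Both genes were without overlap. *Cd14* lies 1.86 Mb from *Egr1* on the same chromosome, on which *Csf1r* lies too, at 26.2 Mb, and the part of this position in their values was not tested.

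The remaining genes of the class overlapped. *Cx3cr1*, the fractalkine receptor, had 2.68, 2.56 and 2.95 CPM in *Egr1*+/+ mice against 1.95, 2.65 and 2.72 in *Egr1*-/- mice (log2 fold change -0.17, SE 0.222). *Itgam*, the CD11b integrin chain, had 4.77, 2.36 and 4.89 CPM against 2.76, 3.23 and 3.23 (-0.39, SE 0.281). Another annotated gene on the same strand, *Gm49368*, shares 3450 of its exon bases, so its count is uncertain.

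Lipid-associated genes were also low, and all 4 were lower on average, with a median log2 fold change of -0.45, a fold of 0.734. Without *Egr1*+/+ replicate 2 the median was -0.22 and *Gpnmb* was at 0.45, and with a skeletal muscle covariate, also chosen after the values were seen, the median was -0.29. *Lgals3*, encoding galectin-3, had 4.51, 5.13 and 6.12 CPM in *Egr1*+/+ mice against 4.32, 3.13 and 2.62 in *Egr1*-/- mice (-0.65, SE 0.230, adjusted p = 0.353 with edgeR), without overlap. *Cd9*, a tetraspanin also found on adipocytes and progenitors, had 8.499, 9.26 and 7.84 CPM against 6.57, 5.26 and 8.15 (-0.36, SE 0.184). *Gpnmb*, a lysosomal glycoprotein, had 2.096, 6.06 and 2.48 CPM against 4.47, 3.39 and 1.52, a range so wide that the 95% interval of its log2 fold change ran from -1.23 to 0.89. *Trem2* had between 15 and 36 counts per mouse, with 0.582, 1.199 and 0.626 CPM against 0.450, 0.516 and 0.679, and its interval ran from -1.50 to 0.43.

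The shares of the classes in the members' summed RPKM followed the split between *Egr1*-/- mice. Resident genes made up 42.4, 42.6 and 41.2% of the members' summed RPKM in *Egr1*+/+ mice against 41.4, 31.1 and 29.2% in *Egr1*-/- mice. Core genes made up 53.7, 54.5 and 55.3% against 54.9, 65.5 and 66.9%. *Lyz2* and *Ctss* had the highest RPKM of the core class in every mouse and weigh most in its share. They held 68.8 and 45.4 of 173 RPKM in *Egr1*-/- replicate 2, and 76.4 and 37.6 of 169 in replicate 3. *Egr1*-/- replicate 1 thus had class shares close to those of the *Egr1*+/+ mice, while its summed level was below theirs. The 2 smaller classes together never reached 4% of the sum: lipid-associated genes made up 1.85 to 2.33% and monocyte-derived genes 1.02 to 1.604%.

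Within the samples whose number begins with 25, the comparison is of 1 *Egr1*-/- mouse with 3 *Egr1*+/+ mice and has no replicate. *Egr1*-/- replicate 1 lay below all *Egr1*+/+ mice for 19 of 34 genes, within their range for 13 and above it for 2, and its median deviation from the *Egr1*+/+ mean was -0.37 on the log2 scale. The other *Egr1*-/- mice were both below all *Egr1*+/+ mice for 19 genes, with a median deviation of -0.46. A count for 1 mouse and a count for 2 mice are not alike. The shares of all tested genes for these counts were not computed. For resident genes the medians were -0.43 and -0.88, and for monocyte-derived genes -0.39 and -0.21.

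Other genes of the same pathways did not move as 1 block. The 10 lists held 118 genes, of which 110 were tested, 23 were lower and 5 higher in *Egr1*-/- mice at an unadjusted p under 0.05, beside 5.6% and 5.06% of all tested genes. After adjustment 0 passed (lowest adjusted p 0.165 with edgeR), while DESeq2 called 9 lower, beside 1.71% of all its genes, and 0 higher. Among ligands that feed or attract macrophages, 7 of 8 were lower on average and 4 at an unadjusted p under 0.05. These included *Pros1* (-0.50) and *Gas6* (-0.49), which bridge dead cells to the Mertk receptor, and the monocyte chemokine *Ccl2* (-1.20). Of 11 other genes of resident macrophages, 8 were lower and 3 higher on average. Their median log2 fold change was -0.36, against -0.75 for the resident members. The lectins *Cd209f* (-1.07) and *Cd209g* (-1.16) were at an unadjusted p under 0.05.

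Complement genes around C1q included 4 of 11 lower at an unadjusted p under 0.05, among them the protease *C1ra* (-0.55) and the anaphylatoxin receptor *C3ar1* (-0.75). At that threshold 5.6% of all tested genes were lower and 5.06% higher. At the same unadjusted threshold, lipid-handling genes included 4 of 17 lower, with the cathepsins *Ctsk* (-0.75) and *Ctsl* (-0.48) first, and 1 higher. Of 14 genes of Fc receptor and ITAM signalling, 6 were lower and 8 higher on average, with a median log2 fold change of 0.15. At that threshold 2 were lower, with *Fcgr3* at -0.76, and 2 higher, *Fgr* (0.57) and *Plcg2* (0.54). Of 12 transcription factors, 5 were lower and 7 higher on average, with a median log2 fold change of 0.14. *Mitf* (-0.39) and *Zeb2* (-0.49) were lower at that threshold. Again at an unadjusted p under 0.05, of 12 inflammatory genes tested *Il1b* was higher (1.601) while *Cxcl9* (-0.49) and *Il12b* (-0.95) were lower, and of 7 genes of alternative activation *Ear2* (-0.91) and *Mgl2* (-0.47) were lower. Of 11 other monocyte genes, 4 were lower and 7 higher on average, with *Vcan* (-0.77) at an unadjusted p under 0.05.

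Antigen presentation and lymphocyte markers lay on the other side. All 7 MHC class II genes were higher on average in *Egr1*-/- mice (median log2 fold change 0.51). Of them, 1, *Ciita* (0.66), was at an unadjusted p under 0.05, beside 5.06% of all tested genes higher. Their CPM summed to 164, 177 and 184 in *Egr1*+/+ mice against 126, 369 and 257 in *Egr1*-/- mice. B cell markers summed to 70.1, 61.1 and 72.6 CPM against 59.7, 144 and 107, with *Cd79a* (0.93) and *Pax5* (0.91) at an unadjusted p under 0.05 among 5 genes. *Egr1*-/- replicate 1 was the lowest of the 6 mice for both lists and the other *Egr1*-/- mice were the highest. T cell markers, 6 genes, summed to 77.0, 71.9 and 80.7 CPM against 47.5, 143 and 97.7, in the same order. Markers of all leukocytes, 6 genes, had a median log2 fold change of 0.27, dendritic cell markers one of 0.00 with 3 of 6 lower, and 4 neutrophil markers one of 0.53.

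Markers of some other cell types were lower together with the resident genes. Mast cell markers summed to 82.3, 123 and 109 CPM in *Egr1*+/+ mice against 81.8, 51.0 and 46.7 in *Egr1*-/- mice, and 5 of 6 were lower at an unadjusted p under 0.05. Markers of stromal progenitors summed to 833, 769 and 790 CPM against 632, 432 and 428, and all 6 were lower at an unadjusted p under 0.05 (median log2 fold change -0.62). Both lists shared with the resident genes the order of the *Egr1*-/- mice, replicate 1 being the highest. Adipocyte markers summed to 2249 to 2427 CPM in *Egr1*+/+ mice and 1806 to 2171 in *Egr1*-/- mice. Markers of skeletal muscle, which lies next to this fat pad, summed to 852, 3091 and 181 CPM against 69.4, 247 and 2151, with *Egr1*+/+ replicate 2 the highest. Of 81 marker genes tested in 16 lists, 21 were lower and 3 higher at an unadjusted p under 0.05, beside 5.6% and 5.06% of all tested genes. After adjustment 0 passed (lowest adjusted p 0.204 with edgeR), and DESeq2 called 8 lower, beside 1.71% of all its genes, and 1 higher. The part of these cell types in the macrophage values was not tested.

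**Figure D4:**
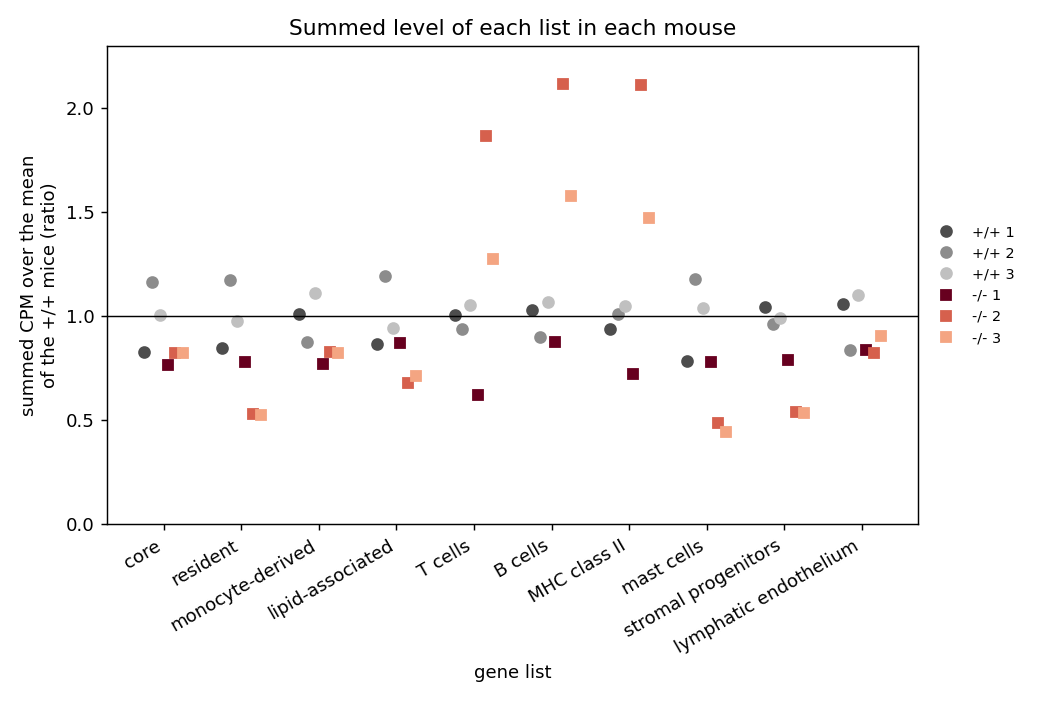
Summed CPM of each gene list in each mouse, as a ratio to the *Egr1*+/+ average, with circles for *Egr1*+/+ and squares for *Egr1*-/- mice and a line at 1. *Egr1*-/- replicates 2 and 3 lie far below 1 for resident macrophage, mast cell and stromal progenitor genes and above 1 for T cell, B cell and MHC class II genes, and *Egr1*-/- replicate 1 lies below 1 in all 10 lists.

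Sequence copies limit some values. In the GENCODE M21 transcripts, *Lyz2* matched *Lyz1* at 95.8% over 1264 bases, *Clec10a* matched *Mgl2* at 96.4% over 727 bases, *Cbr2* matched *Gm11771* at 99.1% over 225 bases and *Cd9* matched *Topbp1* at 95.9% over 172 bases. *Folr2* (975 bases), *Csf1r* (873 bases), *Maf* (440 bases) and *Cd9* (218 bases) overlap exons of another counted gene on the opposite strand. The libraries were strand-specific, but whether the counting used strand, and how it treated reads shared by copies, was not given.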

How the data were processed

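RNA-seq libraries of 6 mice, 3 per genotype, were used, and genotypes were taken from the sample labels. The authors mapped the reads with TopHat2 and Bowtie2, and counted them per gene with featureCounts, and they deposited these counts raw. Strand and multimapping settings were not given in the sources used here. Identifiers were matched to GENCODE M21 of GRCm38 without their version (46574 of 47069 matched), which also gave exon lengths for RPKM. The mice are separate animals, and which 2 were littermates was not given.

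Counts were analysed with edgeR 4.0.16 in R 4.3.3 (TMM normalization, filterByExpr, quasi-likelihood test without covariates), with Benjamini-Hochberg adjustment over all 17667 tested genes at 0.05. Standard errors were derived from the F statistic, as the log2 fold change divided by its square root. CPM and RPKM used library sizes multiplied by the TMM factor, which was 0.787 in *Egr1*-/- replicate 1 and 0.983 to 1.17 in the other mice. Log2 CPM used a prior count of 2. With 3 mice against 3, an exact two-sided permutation test cannot give a p below 0.1, so none is given. Alternatives used DESeq2 1.42.0 and limma 3.58.1, other normalizations, filters, a replicate block and leaving out each mouse were tried, and 3 covariates were added after the values had been seen. The script was tested on simulated data. Copies were sought with blastn 2.17.0 (at least 95% identity over 100 bases).

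The 34 members, their classes and the 26 other lists (209 genes) were chosen with earlier results of these data known. Values per mouse are given for members set by name in the rule for naming genes and for any other member at an unadjusted p under 0.05, and of other lists at most the 3 genes with the lowest p are named. Of lists not described in the report, eosinophil markers had a median log2 fold change of -0.68 (3 tested), NK cell markers 0.03 (3 tested), blood endothelium 0.01 (5), erythroid cells -0.75 (5, 3 lower at an unadjusted p under 0.05) and mammary epithelium 0.09 (6). *Egr2* (-0.06) and *Egr3* (1.02, adjusted p = 0.331 with edgeR) were also counted.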

Additional observations from a re-analysis of the deposited data

How the results depend on the processing

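The median log2 fold change of the members stayed negative under all 17 alternatives, between -0.52 and -0.32, and those of the 4 classes did too. Members past the adjustment numbered 0 in edgeR's fit, 6 with DESeq2, 8 without a filter on low counts and 0 under every other alternative. All genes past it numbered 3 with the main settings, 366 with DESeq2, 552 without a filter and 1 with limma-voom. They numbered 0 with upper-quartile normalization, with at least 50 counts in 3 mice and with the replicate block. With a T and B cell covariate they numbered 1, and with a skeletal muscle covariate 6. These covariates and a term for the first sample number were chosen after seeing the data.

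Without 1 mouse at a time, all genes past it numbered 0 to 59. Lower members at an unadjusted p under 0.05 numbered 8 to 17, with 8 without *Egr1*-/- replicate 2. The shares of all tested genes at that p in these fits were not computed. Medians without 1 mouse ranged from -0.46 to -0.18 for core, -0.92 to -0.61 for resident, -0.31 to -0.24 for monocyte-derived and -0.59 to -0.22 for lipid-associated genes. With the first number as a term, *Egr1*-/- replicate 1 alone is set against the *Egr1*+/+ mice. The resident median was then -0.45 and the monocyte-derived one -0.41. The cause of these shifts was not tested.

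Direction turned under at least 1 alternative for 9 of 34 genes. Without *Egr1*+/+ replicate 2, *C1qb* was at 0.19, *C1qc* 0.43, *Spi1* 0.11, *Gpnmb* 0.45 and *Ctss* 0.06. *Ctss* was at 0.06 without *Egr1*+/+ replicate 3, 0.26 without *Egr1*-/- replicate 1, 0.063 with the muscle covariate and 0.016 without a filter. *Spi1* was at 0.01 without *Egr1*-/- replicate 1 and 0.0050 with the muscle covariate. Without *Egr1*-/- replicate 3, *C1qc* was at 0.10 and *Gpnmb* at 0.16, and without *Egr1*-/- replicate 2, *Aif1* was at -0.080. Without 1 mouse at a time, *Spi1* ranged from -0.17 to 0.11 and *Aif1* from -0.080 to 0.35. With the T and B cell covariate, *C1qb* was at 0.022, *C1qc* 0.10, *Gpnmb* 0.0018 and *Aif1* -0.15. With the first number as a term, *C1qb* was at 0.29, *C1qc* 0.40, *Fcer1g* 0.22, *Aif1* -0.39, *Lyve1* 0.21, *Cbr2* 0.062 and *Gpnmb* 0.34.

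With the replicate number as a block, 12 members were lower at an unadjusted p under 0.05 and the median was -0.41. The share of all tested genes at that p in this fit was not computed. Deviations of same-numbered mice correlated at -0.087, 0.109 and -0.121, so the numbers were not taken as a pairing. At 15 to 36 counts per mouse, *Trem2* could show only large differences.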
